A study of Oryza sativa Indica Group with 12 samples.

Results

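The loops described here are the chromatin interactions that ChIA-PET placed on chromosome 4 of rice, in leaves of 2 indica varieties and for 3 targets. They were taken as every entry of the 6 deposited loop lists whose first anchor lies on chromosome 4, which gave 5878 of 64726 loops. The list sizes equal the numbers of intrachromosomal loops that the study gives. The study also called loops between chromosomes, for RNAPII and H3K9me2 in large numbers, and these are not in the lists. All values therefore describe contacts within the chromosome only. The varieties were Minghui 63 (MH63) and Zhenshan 97 (ZS97), the parents of a widely grown hybrid, and no gene was altered and no treatment was compared. Leaves taken from seedlings 2 weeks old were fixed with formaldehyde and a longer protein crosslinker, and antibodies against H3K4me3, RNA polymerase II (RNAPII) or H3K9me2 pulled down the chromatin. Each combination of variety and target was done in 2 biological replicates, 12 libraries in all, and the authors joined the replicates before calling loops, so each combination has 1 list and the values carry no replicate spread. Whole young leaves were used, so the values average over their cell types.

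In ChIA-PET, fragments held together by the targeted protein or mark are ligated to each other, and a paired-end tag (PET) that joins distant positions counts as 1 contact. A loop is a pair of anchor regions joined by more PETs than random ligation would give. H3K4me3 marks the promoters of active genes and RNAPII transcribes them, whereas H3K9me2 marks silenced heterochromatin that is rich in transposable elements and common around plant centromeres. Rice chromosome 4 is known in cytology for a short arm that is largely heterochromatic and a long arm that is mostly euchromatic. The comparison made here asks how the loops of the active targets and of the silenced mark are placed, how far they reach and how they connect along this chromosome. All positions are in the genome of the variety itself, the MH63 or ZS97 assembly from the rice database RIGW, whose release is not given in the sources used here, and positions were not matched between varieties. The lists name no genes and no annotation of these assemblies was used here, so anchors are given by position only.

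The lists hold the PET counts of called loops, and the library totals that the study gives were not used here, so no value is scaled to depth. The lowest PET count was 4 in 5 lists and 6 in the ZS97 RNAPII list, and loop numbers were therefore read within a list, as shares or as folds over its mean bin, and not between lists. On chromosome 4 the loops held 4754 PETs in MH63 and 6588 in ZS97 for H3K4me3, 15528 and 18555 for RNAPII, and 5827 and 12375 for H3K9me2. Shares carry Wilson 95% intervals and medians carry 95% order-statistic intervals. These cover counting error only, and loops that share an anchor or come from 1 library are not independent.

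Chromosome 4 ranked in the upper part of the chromosomes for the active targets and at or near the top for H3K9me2. For H3K4me3 it held 845 of 9714 loops in MH63 (8.70%, 8.15 to 9.28%) and 1105 of 12279 in ZS97 (8.999%, 8.51 to 9.52%). For RNAPII it held 1382 of 17160 loops in MH63 (8.05%, 7.66 to 8.47%) and 1204 of 13012 in ZS97 (9.25%, 8.77 to 9.76%). In these 4 lists, 3 or 4 of the other 11 chromosomes held more. For H3K9me2 it held 561 of 5627 loops in MH63 (9.97%), where 2 chromosomes held more, and 781 of 6934 in ZS97 (11.3%, 10.5 to 12.03%), where none of the other 11 did and chromosome 8 came next with 10.2%. Per Mb, chromosome 4 carried 17.3 H3K9me2 loops in MH63 and 24.4 in ZS97, and only chromosome 8 of ZS97, with 25.9, and chromosomes 8 and 10 of MH63, with 18.2 and 18.1, carried more.

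The chromosome was split at the midpoint of its extent, which the largest anchor end over the 3 lists of a variety puts at 32.3 Mb in MH63 and 32.0 Mb in ZS97, so that the split lies at 16.2 Mb in MH63 and 16.01 Mb in ZS97. The split is not the centromere, whose position the lists do not give. The stretch from the midpoint on is called the end side and the stretch before it the start side. A loop was given to a side when both its anchors lay there, and loops with an anchor on each side were counted apart.

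The active targets and H3K9me2 occupied opposite sides. In MH63, 804 H3K4me3 loops lay on the end side and 38 on the start side, with 3 across the split, and in ZS97 these numbers were 998, 101 and 6. The end side thus held 95.5% of the MH63 loops (93.9 to 96.7%) and 90.8% of the ZS97 loops (89.0 to 92.4%). RNAPII loops followed, with 1290 on the end side, 60 on the start side and 32 across in MH63, and 1089, 52 and 63 in ZS97, which put 95.6% (94.3 to 96.5%) and 95.4% (94.1 to 96.5%) on the end side. H3K9me2 loops had the reverse placement. In MH63, 28 lay on the end side, 521 on the start side and 12 across, and in ZS97, 32, 726 and 23, which left 5.10% (3.55 to 7.27%) and 4.22% (3.01 to 5.90%) on the end side. The interval of every active list lay far above that of the H3K9me2 list of its variety.

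As densities, MH63 H3K4me3 had 49.7 loops per Mb on the end side and 2.35 on the start side, and ZS97 H3K4me3 had 62.4 and 6.31. MH63 RNAPII had 79.8 and 3.71 loops per Mb, and ZS97 RNAPII 68.0 and 3.25. MH63 H3K9me2 had 1.73 loops per Mb on the end side and 32.2 on the start side, and ZS97 H3K9me2 2.00 and 45.4. PETs were divided the same way, with between 91.4% and 96.2% of the PETs of the active lists on the end side and 3.60% and 4.21% of those of H3K9me2. PETs from loops across the split are left out of these shares.

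Chromosome 4 had the largest contrast between sides of the 12 chromosomes in each of the 6 lists at this split. On the log2 scale, end over start side, it measured 4.40 in MH63 and 3.30 in ZS97 for H3K4me3, where the other 11 chromosomes ran from -0.51 to 3.87 in MH63 and from -0.54 to 2.79 in ZS97. For RNAPII it measured 4.43 in MH63 and 4.39 in ZS97, with the others from -0.95 to 3.32 and from -1.36 to 2.80. In all 4 active lists chromosome 10 came next. For H3K9me2 it measured -4.22 in MH63 and -4.50 in ZS97, whereas the lowest value of the others was -2.67, on chromosome 1, in MH63 and -2.97, on chromosome 2, in ZS97. Chromosome 3 stood at the opposite end of the H3K9me2 values, at 2.03 in MH63 and 3.83 in ZS97. The first place of chromosome 4 depends on the split and the PET limit in 3 lists. With the split at 60% of the extent it came in place 2 for H3K4me3 in both varieties and in place 3 for MH63 H3K9me2, and with PET counts of at least 10 it came in place 3 for MH63 H3K4me3.

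**Figure D1:**
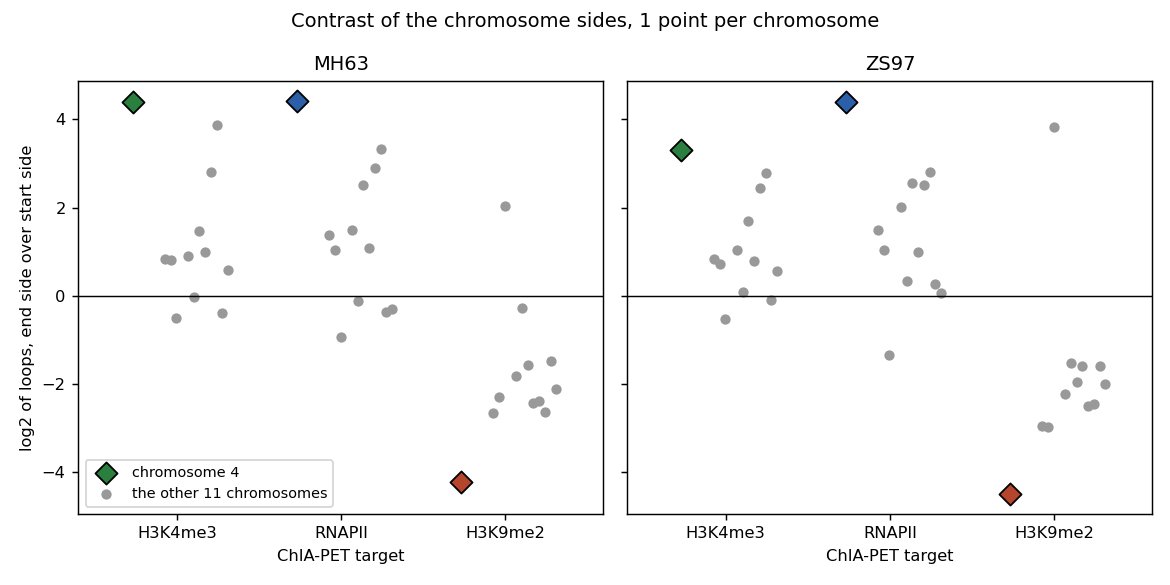
Log2 of the number of loops on the end side over that on the start side (vertical axis) for each chromosome, by target (horizontal axis) and variety (panels), with chromosome 4 as a diamond and the other 11 chromosomes as grey points. Chromosome 4 lies at 4.40, 4.43 and -4.22 in MH63 and at 3.30, 4.39 and -4.50 in ZS97 for H3K4me3, RNAPII and H3K9me2, beyond the other chromosomes on the same side of 0 in each column.

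In bins of 1 Mb, assigned by the midpoint of the loop, H3K4me3 loops were sparse up to 16 Mb and dense after it. In MH63 the 17 bins of the end side held between 8 and 101 loops (median 46) and the 16 bins of the start side between 0 and 11 (median 1). In ZS97 they held between 1 and 115 (median 61) and between 0 and 31 (median 3.5). In MH63 the groups of bins overlap only through the bin from 16 to 17 Mb, with 8 loops, and the bin at the chromosome start, with 11. In ZS97 the lowest bin of the end side is the last one, from 32 Mb, of which the chromosome fills only a small part. The highest bin was the one from 31 to 32 Mb in both varieties, with 101 loops in MH63 (3.82 times the mean bin of the list) and 115 in ZS97 (3.31 times). At least 2 times the mean bin was reached by 8 of 33 bins in MH63, where 17.2% of all bins of the genome reached it, and by 6 of 33 in ZS97, where 15.3% did. These bins made up 24.2% of the chromosome in MH63 and 18.2% in ZS97, and all 14 lay on the end side.

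H3K4me3 loops of the start side were few and lay in several places, the fullest bin being at the chromosome start. The bin from 0 to 1 Mb held 11 loops in MH63 and 31 in ZS97, and the next bin held 6 and 12. From 2 to 5 Mb there were 0 loops in MH63 and 9 in ZS97, and from 5 to 11 Mb there were 12 and 16. A single further bin of the ZS97 start side exceeded 10 loops, the one from 11 to 12 Mb with 16. Bins with 0 loops numbered 4 in MH63, against 3.54% of all bins, and 1 in ZS97, against 0.85%, and all lay on the start side.

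RNAPII loops followed a similar outline. In MH63 the bins of the end side held between 15 and 174 loops (median 74) and those of the start side between 0 and 19 (median 2.5). In ZS97 they held between 0 and 135 (median 63) and between 0 and 25 (median 2), where the 0 again belongs to the last, partial bin. The highest bin was the one from 27 to 28 Mb in MH63, with 174 loops (3.72 times the mean), closely followed by the one from 31 to 32 Mb with 169, and in ZS97 the one from 31 to 32 Mb with 135 loops (3.66 times). At least 2 times the mean was reached by 5 bins in MH63 (14.4% of all bins reached it) and 7 in ZS97 (15% of all bins), and all 12 lay on the end side. Bins without an RNAPII loop numbered 3 in MH63, where 3% of all bins had none, and 5 in ZS97, where 4.53% had none, and 4 of those 5 lay on the start side. The chromosome start, which held the start-side maximum of H3K4me3, had only 4 RNAPII loops in MH63 and 1 in ZS97 from 0 to 1 Mb.

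H3K9me2 loops formed a broad main peak, with smaller rises nearer the chromosome start. The bin from 0 to 1 Mb held 27 loops in MH63 (1.76 times the mean) and 26 in ZS97 (1.32 times). The bin from 3 to 4 Mb held 30 (1.96 times) and 38 (1.93 times), and the next bin only 14 (0.91 times) and 6 (0.31 times). The bins of the end side held between 0 and 7 loops in MH63 and between 0 and 11 in ZS97 (median 1 in both), and those of the start side between 5 and 105 (median 24.5) and between 4 and 157 (median 28.5), so that the lowest bins of the start side overlap with the highest of the end side. Exactly 6 bins reached 2 times the mean in each variety, against 15% of all bins in MH63 and 14.7% in ZS97, and in both they were the 6 consecutive bins from 5 to 11 Mb. These bins held 375 of 561 loops in MH63 (66.8%) and 569 of 781 in ZS97 (72.9%), with 75.2% and 83.6% of the PETs. The top was the bin from 9 to 10 Mb in MH63, with 105 loops (6.85 times the mean), and the bin from 8 to 9 Mb in ZS97, with 157 (7.99 times), next to 155 in the bin from 9 to 10 Mb. These folds are above those of any active bin on the chromosome. Bins with 0 loops numbered 6 in MH63, against 13.4% of all bins, and 7 in ZS97, against 15.9%, all on the end side, and included the last 3 bins in MH63 and the last 4 in ZS97.

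**Figure D2:**
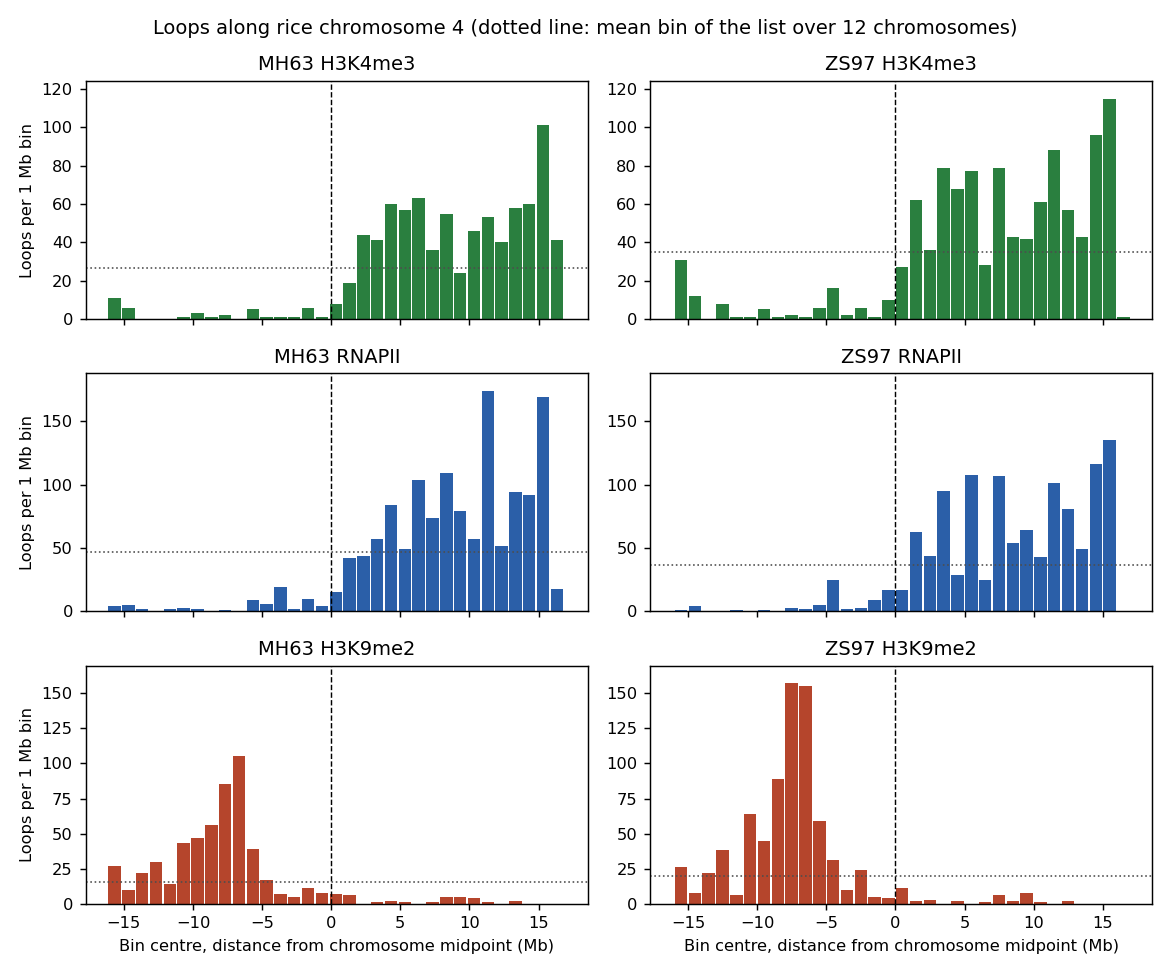
Loops per 1 Mb bin of chromosome 4 (vertical axis) against the distance of the bin centre from the chromosome midpoint in Mb (horizontal axis), with MH63 left and ZS97 right and the targets in rows. The dashed line is the midpoint and the dotted line the mean bin of each list. H3K4me3 and RNAPII bins pass the mean only right of the midpoint, and H3K9me2 loops peak left of it, with 105 loops in MH63 and 157 in ZS97.

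Between the H3K9me2 peak and the active side, the zone from 12 to 16 Mb had few loops of the active targets. Their highest bin there reached 0.46 times the mean. H3K9me2 loops were also below their mean bin in this zone, except in the bin from 13 to 14 Mb of ZS97, with 24 loops (1.22 times). The bin from 11 to 12 Mb, next to the peak, is not part of the zone. It had H3K9me2 at 1.11 times the mean in MH63 and 1.58 in ZS97, and RNAPII at 0.13 and 0.68. From 12 to 16 Mb there were 9 H3K4me3, 35 RNAPII and 31 H3K9me2 loops in MH63 and 19, 31 and 43 in ZS97. Within this zone the bin from 14 to 15 Mb held 6, 10 and 11 loops in MH63 and 1, 9 and 5 in ZS97. The change of the leading target fell in a narrow stretch. In MH63, H3K9me2 had the higher fold over its mean in all 17 bins up to 17 Mb, and H3K4me3 and RNAPII each had the higher fold in all 16 bins after it. In ZS97, H3K9me2 exceeded H3K4me3 in all 15 bins up to 15 Mb and in none after it. Against RNAPII in ZS97 the last bin with H3K9me2 ahead was the one from 16 to 17 Mb, RNAPII was already ahead from 15 to 16 Mb, and the last bin was at 0 for both. Over the whole genome H3K9me2 led H3K4me3 in 42.0% of bins in MH63 and 38.2% in ZS97, and on chromosome 4 in 51.5% and 45.5%.

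Within the active side the loops leaned to the chromosome end. When the chromosome was cut into 4 equal stretches and loops were assigned by midpoint, stretch 4, at the end, held 55.1% of all H3K4me3 loops in MH63 (51.8 to 58.5%) and 49.3% in ZS97 (46.4 to 52.3%), and stretch 3 held 40.2% (37.0 to 43.6%) and 41.3% (38.4 to 44.2%). For RNAPII, stretch 4 held 59.7% (57.1 to 62.3%) in MH63 and 53.4% (50.6 to 56.2%) in ZS97, and stretch 3 held 35.3% and 40.5%. The intervals of stretches 4 and 3 do not overlap in any of the 4 active lists. H3K9me2 loops were divided over the start side, with 45.1% in stretch 1 and 49.0% in stretch 2 in MH63, whose intervals overlap, and 38.4% and 56.7% in ZS97, whose intervals do not.

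Across the 33 bins the rank correlation of loop counts between H3K4me3 and RNAPII was 0.90 in MH63 and 0.91 in ZS97. Between H3K4me3 and H3K9me2 it was -0.81 in MH63 and -0.69 in ZS97, and between RNAPII and H3K9me2 -0.82 and -0.70. The other 11 chromosomes had correlations of -0.88 to -0.50 for H3K4me3 with H3K9me2 in MH63 and of -0.86 to -0.49 in ZS97, so chromosome 4 lay within their range. It also did for RNAPII with H3K9me2, where the others ran from -0.85 to -0.17 in MH63 and from -0.81 to -0.08 in ZS97, and for H3K4me3 with RNAPII in MH63 (0.49 to 0.90). For H3K4me3 with RNAPII in ZS97 it lay above all of the other 11, which ran from 0.27 to 0.84. The bins of a list come from the same joined libraries and neighbouring bins are not independent, so these values are descriptions.

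Among loops with both anchors on 1 side, the reach also differed between the sides. The directions were opposite for RNAPII in MH63 and for H3K9me2 in both varieties. The span of a loop is the distance between the midpoints of its anchors. The median RNAPII span in MH63 was 49.0 kb on the end side (44.4 to 53.6 kb) and 22.6 kb on the start side (15.0 to 29.95 kb), and these intervals do not overlap. In ZS97 it was 32.0 kb (28.4 to 35.8 kb) and 22.8 kb (17.54 to 30.1 kb), and these do. The MH63 ratio of 2.17 dropped to 1.09 among loops with at least 10 PETs. For H3K9me2 the median was 39.8 kb on the end side (21.7 to 53.4 kb) and 108 kb on the start side (93.5 to 128 kb) in MH63, and 42.9 kb (22.3 to 79.1 kb) and 138 kb (122 to 161 kb) in ZS97. The few H3K9me2 loops with both anchors on the active side were shorter, by a ratio of 0.37 in MH63 and 0.31 in ZS97. These medians leave out the loops across the split. Their median span was 11.4 and 14.0 Mb for RNAPII and 16.7 and 10.1 Mb for H3K9me2 in MH63 and ZS97. RNAPII had 32 of them beside 60 start-side loops in MH63 and 63 beside 52 in ZS97. H3K9me2 had 12 beside 28 end-side loops in MH63 and 23 beside 32 in ZS97. How they would change the contrast was not tested.

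H3K4me3 loops were short everywhere. Their median span was 16.02 kb on the end side (15.0 to 17.03 kb) and 13.5 kb on the start side (10.5 to 15.9 kb) in MH63, and 16.7 kb (15.6 to 18.0 kb) and 18.3 kb (14.9 to 23.0 kb) in ZS97, with intervals that overlap in both varieties. None of the 38 start-side loops in MH63 and none of the 101 in ZS97 exceeded 1 Mb, against 11 of 804 and 4 of 998 on the end side. RNAPII loops over 1 Mb made up 13.3% of the end side and 11.7% of the start side in MH63, and 13.3% and 7.69% in ZS97, with overlapping intervals. These shares leave out the loops across the split. Of those, all 32 exceeded 1 Mb in MH63 and 61 of 63 in ZS97, beside only 60 and 52 RNAPII loops of the start side. The shares therefore do not cover all loops of start-side anchors.

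Set beside the other chromosomes, the spans of chromosome 4 were not extreme in most lists. For MH63 RNAPII the median on chromosome 4, 49.2 kb (44.4 to 53.7 kb), was below the 60.4 kb of the other loops of the list (58.1 to 62.6 kb). For ZS97 H3K9me2 it was 139 kb on chromosome 4 (122 to 161 kb), above 113 kb elsewhere (108 to 119 kb). For ZS97 H3K4me3 chromosome 4 had the lowest median of the 12 chromosomes, but 16.8 kb (15.8 to 18.0 kb) against 17.6 kb (17.3 to 17.9 kb) elsewhere lay within counting error. In the other 3 lists the interval on chromosome 4 also overlapped that of the remaining loops.

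PET counts per loop, which grow with both contact frequency and depth, differed little between the sides for the active targets. The median was 5 PETs on both sides for H3K4me3 in each variety and 6 on both sides for MH63 RNAPII, and it was 9 on the end side and 10.5 on the start side for ZS97 RNAPII. For H3K9me2 the median was 4 PETs on the end side and 7 on the start side in MH63, and 6.5 and 9 in ZS97. Loops with at least 10 PETs made up 14.3% of the end side (5.70 to 31.5%) and 33.2% of the start side (29.3 to 37.4%) for MH63 H3K9me2, and 25% (13.3 to 42.1%) and 49.3% (45.7 to 52.9%) for ZS97 H3K9me2. The intervals overlap in MH63 and do not in ZS97.

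The loop with most PETs was shorter than the median loop of its list on the chromosome in all 6 lists. For H3K4me3 the strongest loop in MH63 had 37 PETs and joined chr4:26497742-26502163 with chr4:26507710-26509350, over 8.58 kb. In ZS97 it had 49 PETs and joined chr4:26151230-26155774 with chr4:26161391-26162899, over 8.64 kb. The strongest start-side H3K4me3 loops had 13 PETs in each variety and nearly the same span, 12.2 kb, at chr4:8735121-8736941 with chr4:8747518-8749032 in MH63 and at chr4:9031508-9033419 with chr4:9043867-9045515 in ZS97. Both lay inside the stretch where H3K9me2 loops peaked. Whether they are the same place in the genomes was not tested.

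For RNAPII the strongest loop in MH63 had 194 PETs over 26.0 kb, from chr4:31921262-31926356 to chr4:31941956-31957655, and in ZS97 535 PETs over 19.5 kb, from chr4:27131252-27140151 to chr4:27146763-27163649. The strongest of the start side had 60 PETs in MH63, from chr4:12131335-12134553 to chr4:12192235-12200392, and 77 in ZS97, from chr4:15429124-15437220 to chr4:15448218-15453207. The right anchor of the MH63 loop is the most connected RNAPII anchor of that side.

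For H3K9me2 the strongest loop joined neighbouring wide anchors of the start side. In MH63 it had 118 PETs over 92.6 kb, from chr4:8283042-8439042 to chr4:8440383-8466861, and in ZS97 255 PETs over 109 kb, from chr4:6974355-7060664 to chr4:7068140-7183971. On the end side a single loop close to the split carried much of the signal. In MH63 it had 54 PETs, 26.0% of the PETs of H3K9me2 loops on that side, and joined chr4:17421402-17434795 with chr4:17443826-17454821 over 21.2 kb. In ZS97 it had 187 PETs, 36.4% of that side, and joined chr4:16596104-16608964 with chr4:16617781-16629124 over 20.9 kb. By contrast, the strongest start-side loops held 2.12% and 2.18% of the PETs there.

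Partners were counted over merged anchors (intervals of 1 list that overlap were merged), a partner being another anchor linked by at least 1 loop. Loops between chromosomes are not in the lists, so only partners on chromosome 4 are counted. Anchors with 3 or more partners made up a larger share of the anchors on the side where their target was abundant. For H3K4me3, 22.3% of end-side anchors (19.6 to 25.2%) and 4.55% of start-side anchors (1.56 to 12.5%) had 3 or more partners in MH63, and 30.4% (27.5 to 33.4%) and 15.3% (10.0 to 22.7%) in ZS97. For RNAPII the shares were 47.6% (43.5 to 51.8%) and 13.3% (6.91 to 24.2%) in MH63, and 35.8% (32.0 to 39.7%) and 20.8% (11.7 to 34.3%) in ZS97. For H3K9me2 they were 11.6% (5.07 to 24.5%) and 45.8% (39.98 to 51.7%) in MH63, and 23.4% (13.6 to 37.2%) and 55.2% (49.3 to 60.9%) in ZS97. The intervals of the sides overlap only for ZS97 RNAPII. Loop number and partner number are linked, since more loops give each anchor more chances of a partner.

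**Figure D3:**
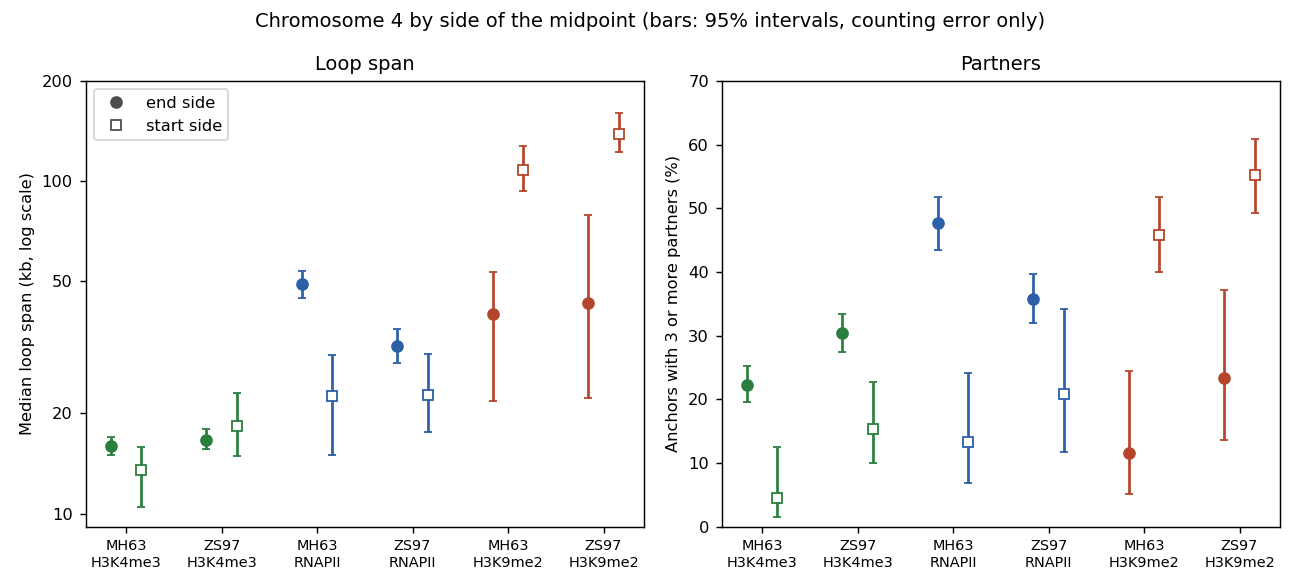
Median loop span in kb on a log axis (left) and the share of anchors with 3 or more partners in % (right) for the end side (filled circles) and the start side (open squares) of chromosome 4, by variety and target, with 95% intervals for counting error. H3K9me2 spans are longer and its shares higher on the start side, at 108 and 138 kb and at 45.8% and 55.2%, while the shares of the active targets are higher on the end side. Spans leave out the loops across the split.

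On the chromosome as a whole the share of anchors with 3 or more partners was 21.0% for MH63 H3K4me3, 28.6% for ZS97 H3K4me3, 44.2% for MH63 RNAPII, 34.6% for ZS97 RNAPII, 41.1% for MH63 H3K9me2 and 50.6% for ZS97 H3K9me2. On the other 11 chromosomes together it was 19.4%, 26.4%, 42.2%, 32.2%, 42.3% and 49.2% in the same order, and the interval of chromosome 4 overlapped that of the rest in each list.

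Hubs, taken as anchors with at least 10 partners, were rare for H3K4me3 and common for RNAPII and H3K9me2. H3K4me3 had 1 such anchor in MH63, at chr4:30066997-30070665 with 11 partners, and 2 in ZS97, of which the one at chr4:27035555-27039162 with 10 partners comes first along the chromosome. On the start side the most connected H3K4me3 anchors, both near the chromosome start, had 3 partners in MH63 (chr4:228072-229993) and 6 in ZS97 (chr4:336409-338902). RNAPII had 56 hubs among 548 anchors of the end side and 1 among 60 of the start side in MH63. In ZS97 it had 44 among 579 and 3 among 48. The mean number of partners per RNAPII anchor was 4.36 and 2.27 in MH63, but 3.50 and 3.44 in ZS97. The RNAPII hub counts of ZS97 thus largely follow its anchor numbers. H3K9me2 had 0 hubs among 43 anchors of the end side and 27 among 273 of the start side in MH63, and 0 among 47 and 49 among 279 in ZS97.

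Hub anchors were wide. Their median width for RNAPII on the end side was 8.78 kb in MH63 and 9.34 kb in ZS97, against 2.52 and 1.55 kb for the other anchors there. For H3K9me2 on the start side it was 33.7 kb in MH63 and 35.3 kb in ZS97, against 11.4 and 7.33 kb. Loops that touch an end-side hub made up 61.9% of RNAPII loops on the chromosome in MH63 and 58.5% in ZS97, and loops that touch a start-side hub made up 53.8% of H3K9me2 loops in MH63 and 69.8% in ZS97. A wide anchor can collect more PETs and partners than a narrow one, and the part of width in these counts was not tested.

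The most connected anchor of MH63 RNAPII lay at chr4:31941956-31957655, 15.7 kb wide, with 50 partners and 1164 PETs, and 25 of its partners were more than 1 Mb away. In ZS97 it lay at chr4:19416818-19426874, 10.1 kb wide, with 47 partners and 725 PETs, and 28 of its partners were more than 1 Mb away. The H3K9me2 anchor with most partners lay at chr4:8283042-8439042 in MH63, 156 kb wide, with 24 partners and 731 PETs, and at chr4:8544557-8675151 in ZS97, 131 kb wide, with 37 partners and 1291 PETs. Only 4 of the 24 and 8 of the 37 partners were more than 1 Mb away. On the end side the most connected H3K9me2 anchors had 4 partners in MH63 (chr4:24199198-24270730) and 6 in ZS97 (chr4:23455333-23527016).

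A few RNAPII hubs on the start side reached far into the end side. In MH63 the only one, at chr4:12192235-12200392, had 41 partners, of which 27 lay on the end side and 32 were more than 1 Mb away. It carried 27 of the 32 RNAPII loops across the split, including the longest RNAPII loop of the chromosome, 19.8 Mb with 17 PETs, whose other anchor is the hub with 50 partners. In ZS97 there were 3. The one at chr4:11471997-11481918 had 38 partners, 29 of them on the end side. The one at chr4:1316556-1323140 had 23 partners, 17 of them on the end side, and held the longest RNAPII loop, 30.3 Mb with 10 PETs, to chr4:31586749-31593324. The one at chr4:15693658-15703824 had 23 partners, 15 of them on the end side. Together they carried 61 of the 63 loops across the split. Without the loops of these anchors, an alternative added after seeing the data, the end side held 96.6% of RNAPII loops in MH63 and 97.1% in ZS97.

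**Figure D4:**
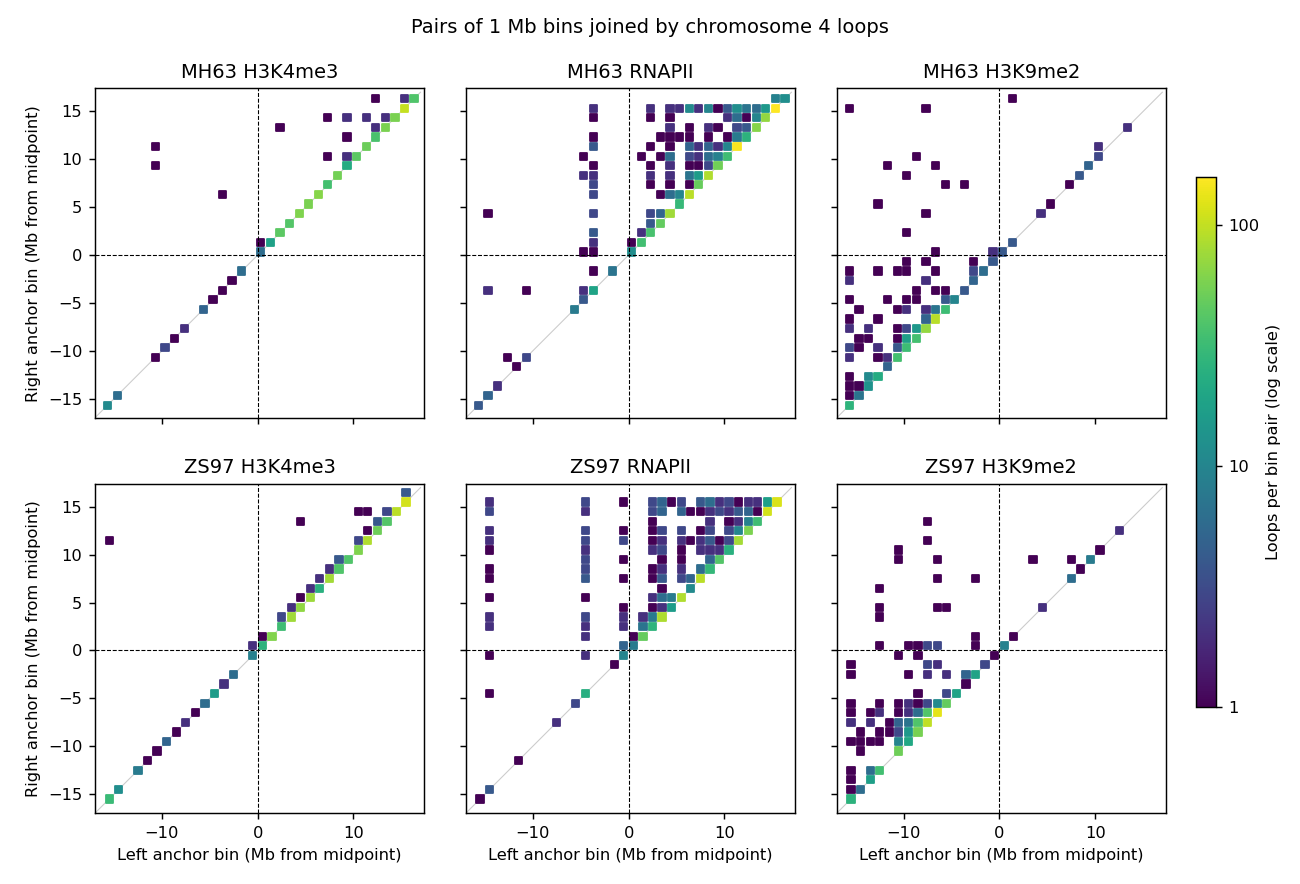
Pairs of 1 Mb bins joined by loops of chromosome 4, with the bin of the left anchor on the horizontal axis and that of the right anchor on the vertical axis, both in Mb from the chromosome midpoint, and the number of loops per pair as colour on a log scale. MH63 is above ZS97. Nearly all H3K4me3 loops stay on or next to the diagonal, RNAPII pairs fill the triangle of the end side with columns above the hubs of the start side, and most H3K9me2 pairs off the diagonal lie on the start side.

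Most loops stayed within 1 bin, and H3K4me3 loops nearly all did. Both anchors lay in the same 1 Mb bin for 97.5% of H3K4me3 loops in MH63 (96.2 to 98.4%) and 96.6% in ZS97 (95.3 to 97.5%). For RNAPII the share was 78.7% (76.5 to 80.8%) in MH63 and 76.2% (73.8 to 78.6%) in ZS97, and for H3K9me2 75.8% (72.0 to 79.1%) and 71.6% (68.3 to 74.6%). Beyond the neighbouring bin went 1.42% and 0.36% of H3K4me3 loops, 13.4% and 16.4% of RNAPII loops, and 11.1% and 11.8% of H3K9me2 loops in MH63 and ZS97. Loops over 10 Mb numbered 3 and 1 for H3K4me3, 28 and 70 for RNAPII, and 17 and 14 for H3K9me2 in the same order.

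Loops across the split differed in make-up between the targets. The RNAPII ones started from few places, with 3 distinct left anchors for 32 loops in MH63 and 4 for 63 in ZS97, and ended at 30 and 49 distinct right anchors. The H3K9me2 ones were spread, with 12 left anchors for 12 loops in MH63 and 21 for 23 in ZS97, and the left anchor of 7 and 16 of these loops lay in the H3K9me2 peak from 5 to 11 Mb. By loop midpoint, that stretch held 66.8% and 72.9% of all H3K9me2 loops of the chromosome, so this placement is not particular to loops across the split. PET counts of the H3K9me2 loops across the split were low, with a median of 4 in MH63 and 5 in ZS97. The longest H3K9me2 loop, 30.6 Mb with 4 PETs in MH63, joined chr4:521947-540903 with chr4:31117160-31141783 near the opposite chromosome ends, and in ZS97 the longest measured 20.7 Mb with 5 PETs, from chr4:5271634-5278531 to chr4:25929604-25968041. The longest H3K4me3 loops measured 21.9 Mb in MH63, from chr4:5586249-5587366 to chr4:27470511-27473947, and 26.7 Mb in ZS97, from chr4:752899-754686 to chr4:27474346-27475703, each with 4 PETs, the lowest count in the list.

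Loops of up to 1 Mb between their outer ends lay over most of the side in which their target was abundant. H3K4me3 loops lay over 52.7% of the bases of the end side and 4.48% of the start side in MH63, and over 60.3% and 12.6% in ZS97. RNAPII loops lay over 93.5% and 5.58% in MH63, and over 82.2% and 10.0% in ZS97. H3K9me2 loops lay over 11.1% of the end side and 71.8% of the start side in MH63, and over 6.64% and 66.2% in ZS97. When loops of any length were counted, the difference between the sides, end minus start, shrank to 6.17 percentage points for MH63 RNAPII, 7.30 for ZS97 RNAPII, 0.76 for ZS97 H3K4me3, -0.49 for MH63 H3K9me2 and -17.8 for ZS97 H3K9me2, and it stayed within 1.5 times its value only for MH63 H3K4me3.

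**Figure D5:**
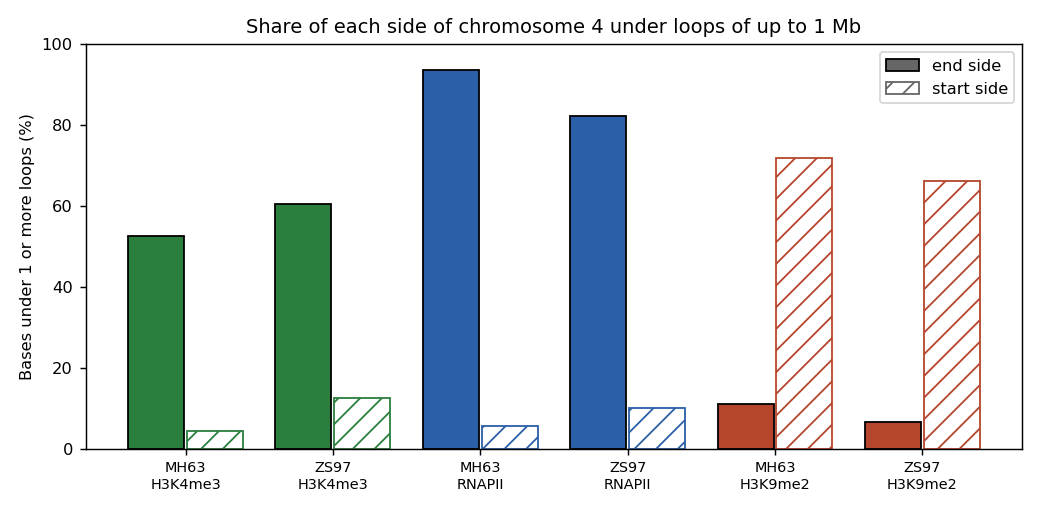
Share of the bases of the end side (filled bars) and the start side (hatched bars) of chromosome 4 that lie under 1 or more loops of up to 1 Mb, in %, by variety and target. RNAPII loops lie over 93.5% of the end side in MH63 and 82.2% in ZS97, and H3K9me2 loops over 71.8% and 66.2% of the start side.

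Over the whole chromosome, RNAPII anchors overlapped H3K4me3 anchors more often than H3K9me2 anchors. An overlap of at least 1 bp with an H3K4me3 anchor was found for 245 of 608 RNAPII anchors in MH63 (40.3%, 36.5 to 44.2%) and 289 of 627 in ZS97 (46.1%, 42.2 to 50.01%). On the end side the share was 43.2% and on the start side 13.3% in MH63 (39.2 to 47.4% and 6.91 to 24.2%), and 46.8% and 37.5% in ZS97 (42.8 to 50.9% and 25.2 to 51.6%), where the intervals overlap. RNAPII anchors that overlapped an H3K4me3 anchor had 3 or more partners in 65.3% of cases in MH63 and 50.2% in ZS97, against 30.03% and 21.3% of those apart from one. A wide RNAPII anchor can meet an overlap of 1 bp more easily and can also collect more partners, and the part of width was not tested. RNAPII anchors were wider than H3K4me3 anchors, with medians of 2.72 and 1.35 kb in MH63 and 1.81 and 1.52 kb in ZS97, and an overlap of at least 50% of the RNAPII anchor was met by only 9.70% in MH63 and 21.5% in ZS97.

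Of the H3K9me2 anchors, 11 of 316 overlapped an H3K4me3 anchor in MH63 (3.48%, 1.95 to 6.12%) and 8 of 326 in ZS97 (2.45%, 1.25 to 4.77%). With RNAPII anchors, 15 of 316 overlapped in MH63 (4.75%) and 8 of 326 in ZS97 (2.45%). On the end side of MH63 alone this was 8 of 43 (18.6%, 9.74 to 32.6%). Of the RNAPII anchors, 2.63% in MH63 (1.63 to 4.23%) and 1.75% in ZS97 (0.98 to 3.11%) overlapped an H3K9me2 anchor. On the start side this share was 13.3% in MH63, equal to that with H3K4me3 there, with 8 of 60 anchors for each, and 16.7% in ZS97 (8.70 to 29.6%), whose interval overlaps that of the 37.5% with H3K4me3. H3K9me2 anchors spanned 5.11 Mb of the 16.2 Mb start side in MH63 and 4.53 Mb of 16.01 Mb in ZS97. H3K4me3 anchors spanned only 0.095 and 0.198 Mb there. The equal shares in MH63 therefore do not mean an equal association of RNAPII anchors with both. On the end side H3K9me2 anchors spanned 0.74 Mb in MH63 and 0.73 Mb in ZS97. Of the H3K4me3 anchors of the start side, 6 of 66 overlapped an H3K9me2 anchor in MH63 (9.09%, 4.23 to 18.4%) and 7 of 124 in ZS97 (5.65%, 2.76 to 11.2%). These shares were above those of the end side, 0.59% (0.25 to 1.37%) in MH63 and 0.32% (0.11 to 0.95%) in ZS97. Over the whole chromosome they were 1.20% and 0.95%. Most H3K4me3 anchors of the start side thus lay apart from H3K9me2 anchors. Overlap was more frequent there than on the end side, where H3K9me2 anchors spanned far fewer bases, and the part of this span was not tested.

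Between the varieties, the side shares of the loops differed beyond counting error for H3K4me3 only. The share of H3K4me3 loops on the end side was 95.5% in MH63 and 90.8% in ZS97, a difference of 4.68 percentage points, and the intervals do not overlap. For RNAPII the difference was 0.11 points and for H3K9me2 0.88, with overlapping intervals. The share of the list found on chromosome 4 differed by -1.20 points for RNAPII, MH63 minus ZS97, with intervals that do not overlap. With a lowest count of 6 PETs in both lists it was 8.15% in MH63 and 9.25% in ZS97. For H3K9me2 it differed by -1.30 points and for H3K4me3 by -0.30, with overlapping intervals. As folds over the mean bin of the list, the start-side H3K4me3 bins that differed most were those from 0 to 1 Mb, at 0.42 in MH63 and 0.89 in ZS97, and from 11 to 12 Mb, at 0.04 and 0.46, with positions not matched between the genomes. Among loops with at least 10 PETs the end side held 92.5% in MH63 and 90.4% in ZS97. Each list was called at its own depth on its own genome, and the spread between replicates, which these lists do not hold, would be needed to test any of these differences.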

How the data were processed

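Leaf chromatin of MH63 and ZS97 was profiled by ChIA-PET for H3K4me3, RNAPII and H3K9me2. The authors filtered linkers, mapped tags to the variety's own genome and removed redundant PETs with an updated ChIA-PET Tool (version not given in the sources used here). They called loops between ChIP-seq peaks that they had widened as anchors, so a place with few peaks can hold few loops, and the parts of peaks and contacts were not told apart here. The deposited PET count of a loop is a raw count summed over the joined replicates and not scaled to depth. The deposited p-value and FDR of each loop come from the authors' program, kept below an FDR of 0.05. Other deposited columns are anchor starts and ends, printed here counted from 1.

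Loops were grouped by variety and target from the labels. Spans, joined anchors, partners, bins and coverage were computed with Python (3.11.15) and its packages numpy (2.4.6) and scipy (1.17.1), with pandas (2.3.3) for tables and matplotlib (3.10.9) for figures, and the functions were tested on simulated loops. No p-value was computed, since each combination has 1 list. Named were, per list, the strongest loop and the most connected anchor of each side (ties to the lower start), the longest loop and the fullest bin. The chromosome, its sides and these measures were chosen with earlier results of these data known. RNAPII loops with overlapping anchors (37 in MH63, 28 in ZS97) were kept. A single ZS97 H3K9me2 loop outside the 12 chromosomes was left out. Alternatives were PET counts of at least 6 and 10, splits at 40% and 60% of the extent, other measures of span, other ways to join anchors, loops of up to 200 kb, 1 Mb or any length, coverage by 2 loops and stricter overlaps.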

Additional observations from a re-analysis of the deposited data

Results flagged for a closer look

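The contrast between the sides of chromosome 4 had opposite signs for the active targets and the silenced mark in both varieties. On the log2 scale of loops on the end side over the start side, H3K4me3 minus H3K9me2 came to 8.21 and RNAPII minus H3K9me2 to 8.77, as means of the 2 varieties. These differences were not tested, because there is 1 list per variety and target.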

How the results depend on the processing

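No paired analysis was possible because the deposited lists pool both replicates, and no replicate was left out for the same reason. Of 188 values under the alternatives, ranks not counted, 147 stayed within their interval (or within 1.5 times the value, for counts and coverage) and 41 moved; the cause was not tested. Of 42 further values, the ranks of chromosome 4, 4 moved, as given above. The numbers of bins at 2 or more times the mean stayed within 1.5 times under all 24.

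With at least 10 PETs, the share of the list on chromosome 4 was 8.03% (MH63 H3K4me3), 7.21% (ZS97 H3K4me3, and 8.11% with at least 6), 10.8% (MH63 H3K9me2) and 12.6% (ZS97 H3K9me2). The end-side share was then 92.5% (MH63 H3K4me3), 2.26% (MH63 H3K9me2, and 3.37% with at least 6) and 2.19% (ZS97 H3K9me2). With the split at 60% of the extent it was 85.6% and 78.3% for H3K4me3 in MH63 and ZS97, 87.7% and 85.6% for RNAPII, and 2.86% for ZS97 H3K9me2. At 40% it was 96.9% for ZS97 RNAPII, and 9.29% and 8.43% for H3K9me2 in MH63 and ZS97. With loops across the split placed by midpoint, ZS97 RNAPII gave 93.9%, and without the loops of start-side hubs, an alternative chosen after seeing the data, RNAPII gave 96.6% in MH63 and 97.1% in ZS97.

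For ZS97 H3K4me3, whose sides had overlapping span intervals, the end over start ratio of median spans was 0.91 and turned to 1.03 with at least 10 PETs. The ratio was 1.09 for MH63 RNAPII with at least 10 PETs, and 0.132 for MH63 H3K9me2 between inner anchor ends. The share of anchors with 3 or more partners fell with the PET limit. With at least 6 and 10 PETs it was 8.27% and 2.11% (MH63 H3K4me3), 9.73% and 2.44% (ZS97 H3K4me3), 35.5% and 26.2% (MH63 RNAPII) and 34.1% and 27.8% (MH63 H3K9me2), and with at least 10 it was 23.6% (ZS97 RNAPII). The coverage difference, end minus start, was 27.4 points for MH63 H3K4me3 under 2 loops and 47.4 for ZS97 RNAPII with loops of up to 200 kb. With loops of any length it was 0.76 (ZS97 H3K4me3), 6.17 (MH63 RNAPII), 7.30 (ZS97 RNAPII), -0.49 (MH63 H3K9me2) and -17.8 points (ZS97 H3K9me2). Requiring 50% of the RNAPII anchor left 9.70% (MH63) and 21.5% (ZS97) over H3K4me3, and 50% of the H3K4me3 anchor left 0.92% of ZS97 H3K9me2 anchors. Depth that was not scaled for, the unequal PET limits and the joined replicates limit every comparison between lists.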
